A study of Mus musculus with 9 samples.

Results

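The genes described here are 34 listed cell cycle and proliferation genes of the mouse, from the helicase subunits that license DNA replication to the motors, kinases and ubiquitin ligase factors that carry a cell through mitosis. Each gene was read from its brightest probe set annotated to that gene alone, which gave 33 of the 34 a value among 18193 genes measured in this way. Ccnb1 (cyclin B1) was not analysed here. All 33 had a mean log2 signal of at least 6, a level reached by 70.6% of all genes, so no member was set aside as dim.

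The arrays held RNA of the diseased aorta. All mice were female APOE-/- animals on a C57BL/6 background, labelled 8 weeks of age, and had eaten a diet with 0.2% cholesterol and 10% coconut oil for 30 weeks, so the loss of apolipoprotein E and the diet are common to every group. They then received a single tail vein injection of HDAd-gE3, a helper-dependent adenoviral vector that carries human apolipoprotein E3, of HDAd-0, the same kind of vector without the gene, or of phosphate buffered saline (PBS), and were killed 10 days later. Each array was made from 3 pooled aortas, cut out between the aortic sinus and the arch, with 3 arrays for every group (HDAd-gE3 replicates 2, 3 and 4, HDAd-0 replicates 3, 4 and 5, and PBS replicates 1, 3 and 4). The promoter of the transgene is not named in the labels, and the 3 groups hold no mouse with normal apolipoprotein E. Whole tissue was measured, so fewer cells of a type and less RNA per cell cannot be told apart.

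Vascular smooth muscle and endothelial cells of the adult artery divide rarely, and in atherosclerotic plaques much of the known proliferation is that of macrophages. A cell that leaves quiescence loads the MCM helicase onto its replication origins, makes deoxynucleotides with ribonucleotide reductase and thymidylate synthase, and enters S phase under cyclin E. Cyclins A and B with Cdk1 then drive mitosis, Aurora and Polo kinases build the spindle, the Bub kinases hold anaphase until chromosomes are attached, and the anaphase-promoting complex with Cdc20 and Ube2c ends mitosis by marking cyclin B and securin for destruction. In resting cells the DREAM complex keeps many of these genes silent, through E2F sites in the genes of DNA replication and through CHR elements, often beside CCAAT boxes, in the genes of mitosis.

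These promoter elements were looked for because the genes were read as a group, and windows are shown for a few members: Ube2c and Nusap1, with the largest differences between HDAd-gE3 and PBS, Aurka and Cenpf from the mitotic genes, and Mcm3, the replication gene with the largest difference between the vectors. Each window runs from 250 bases before to 50 bases after the transcript start (RefSeq, GRCm38.p6), 5′ to 3′ on the gene's strand, and capitals mark the letters TTTGAA or TTCGAA (CHR), CCAAT, or TTTGGCGC, TTTGCCGC, TTTCGCGC or TTTCCCGC (E2F), each on either strand.
Ube2c, chr2:164769679-164769978, plus strand: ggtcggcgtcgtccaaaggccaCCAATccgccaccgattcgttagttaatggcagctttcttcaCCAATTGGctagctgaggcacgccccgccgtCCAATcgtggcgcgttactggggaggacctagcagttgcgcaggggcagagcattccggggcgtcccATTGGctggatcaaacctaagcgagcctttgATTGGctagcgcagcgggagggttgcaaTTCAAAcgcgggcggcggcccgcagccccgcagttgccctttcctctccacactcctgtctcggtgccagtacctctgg
Nusap1, chr2:119618048-119618347, plus strand: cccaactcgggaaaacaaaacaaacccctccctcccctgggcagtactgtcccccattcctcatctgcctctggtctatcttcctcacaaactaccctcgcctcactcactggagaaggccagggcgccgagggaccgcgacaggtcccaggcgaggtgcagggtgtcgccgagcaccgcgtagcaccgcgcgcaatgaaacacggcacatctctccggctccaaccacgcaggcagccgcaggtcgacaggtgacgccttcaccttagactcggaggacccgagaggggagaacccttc
Aurka, chr2:172370521-172370820, minus strand: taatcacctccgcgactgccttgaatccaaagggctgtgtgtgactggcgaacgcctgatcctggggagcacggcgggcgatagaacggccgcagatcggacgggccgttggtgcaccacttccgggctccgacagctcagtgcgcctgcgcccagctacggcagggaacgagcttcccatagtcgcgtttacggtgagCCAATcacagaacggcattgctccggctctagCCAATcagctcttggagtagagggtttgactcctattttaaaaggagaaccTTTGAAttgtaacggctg
Cenpf, chr1:189688037-189688336, minus strand: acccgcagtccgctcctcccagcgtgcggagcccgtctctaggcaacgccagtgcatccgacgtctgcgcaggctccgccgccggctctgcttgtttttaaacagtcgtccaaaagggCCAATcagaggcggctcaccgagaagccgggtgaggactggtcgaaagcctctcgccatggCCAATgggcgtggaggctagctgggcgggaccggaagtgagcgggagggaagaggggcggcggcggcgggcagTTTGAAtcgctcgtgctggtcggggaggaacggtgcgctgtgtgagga
Mcm3, chr1:20820263-20820562, minus strand: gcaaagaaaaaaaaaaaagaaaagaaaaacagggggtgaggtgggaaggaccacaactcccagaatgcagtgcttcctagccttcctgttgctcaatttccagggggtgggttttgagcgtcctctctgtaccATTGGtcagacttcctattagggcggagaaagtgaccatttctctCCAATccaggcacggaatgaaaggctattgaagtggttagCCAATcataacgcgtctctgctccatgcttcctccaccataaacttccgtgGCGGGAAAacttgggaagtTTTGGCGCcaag
The Ube2c window holds 1 CHR match, 29 bases before the start, and 6 CCAAT matches, of which a pair on opposite strands overlaps. Aurka and Cenpf hold 1 CHR and 2 CCAAT matches each, Mcm3 holds 2 E2F and 3 CCAAT matches and no CHR match, and none of these letters is in the Nusap1 window.

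Windows were matched for 27 of the 33 members, Prc1 with a pair of overlapping windows, 28 in all. Ccne2, Ccna2, Aurkb, Tpx2 and Foxm1 were not matched. Windows on chromosome 18, where Kif20a lies, were left out, both for the members and for the count of all windows. A CHR match was in 17 of the 28 windows (60.7%, against 19.2% of all 32851 windows), CCAAT in 23 (82.1%, against 37.4%) and an E2F match in 4 (14.3%, against 2.26%). The roles differed in which letters they held: of the 8 genes of replication licensing and DNA synthesis, Mcm3, Mcm5 and Mcm6 held an E2F match and only Mcm2 a CHR match, whereas 16 of the 20 windows of the other members held a CHR match and only that of Cdk1 an E2F match. These are matches of letters, and no binding was measured.

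Values are log2 signals made by RMA (robust multi-array average), so a difference of 1 is a factor of 2, and levels are compared between arrays only, never between genes. Array medians lay between 6.67 and 6.77. Genes of artery cells were read on every array: Myh11, the smooth muscle myosin, at 13.29 to 13.55, and Cdh5, the endothelial cadherin, at 8.69 to 9.34. The 6 cardiac muscle markers were read on every array too, with list means of 12.09 to 13.76.

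A single array stood apart for the cell cycle genes, HDAd-gE3 replicate 4. It was the highest array of its group for 33 of 33 members and the highest of all 9 arrays for 24 of them. Relative to each gene's mean over the 9 arrays, the median member read +0.44 on that array, against -0.17 and -0.11 on HDAd-gE3 replicates 2 and 3. In the HDAd-0 group, replicates 3 and 5 read +0.17 and +0.26, whereas replicate 4 read -0.07 and was the lowest of its 3 arrays for 24 members. The PBS arrays lay close together, from -0.20 to -0.13. The median SD of a member within its group was accordingly 0.34 for HDAd-gE3, 0.22 for HDAd-0 and 0.12 for PBS, so the group with the gene was the least precisely measured.

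**Figure D1:**
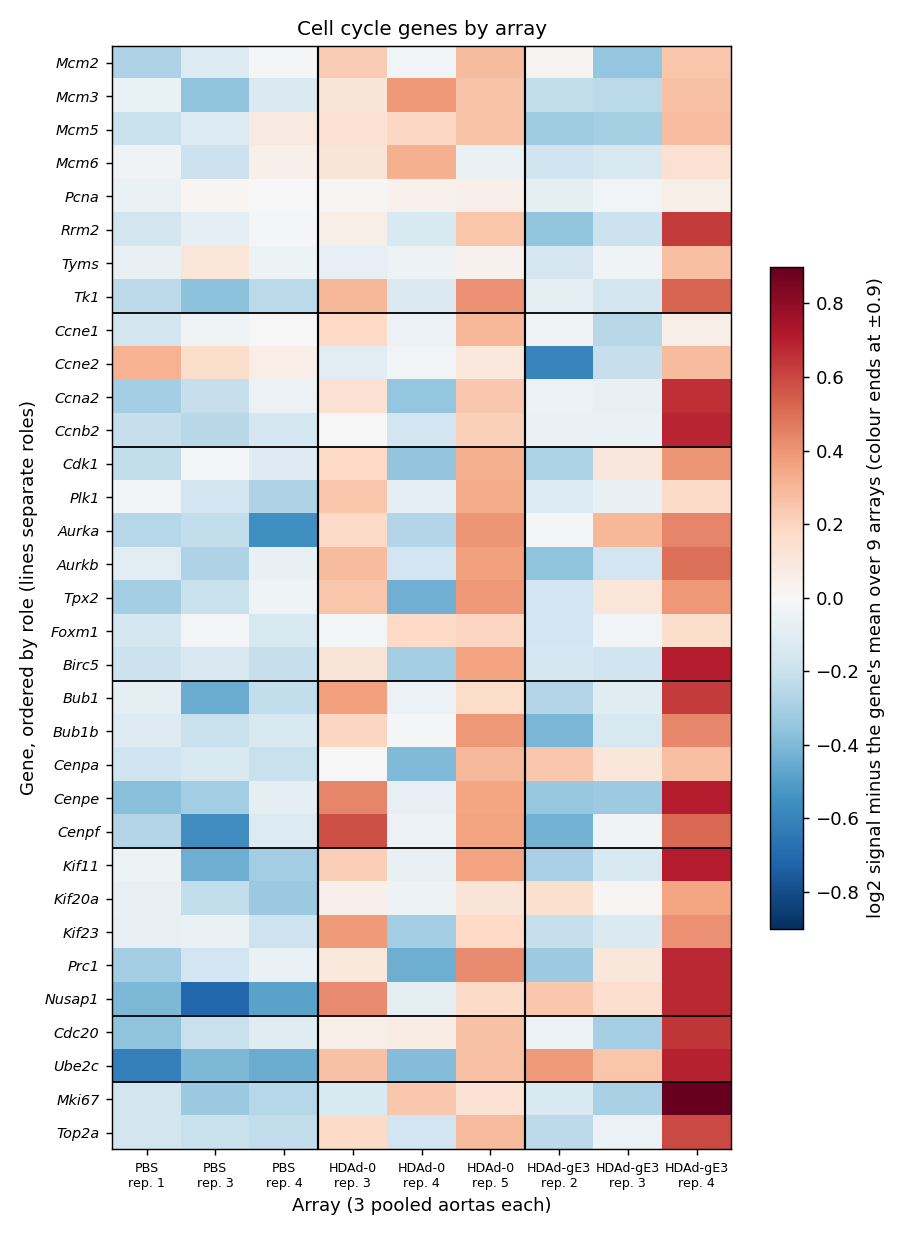
Log2 signal of the 33 measured cell cycle genes (rows, ordered by role) on the 9 arrays (columns, 3 pooled aortas each), minus each gene's mean over the 9 arrays, with red above and blue below that mean. HDAd-gE3 replicate 4 is red for all 33 genes, and the 3 PBS columns are mostly blue.

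Markers of blood cell precursors were high on the same array. All 9 of 9 neutrophil precursor markers had their highest value there, with a list mean of 9.58 against 7.59 and 7.53 on the other HDAd-gE3 arrays, 6.51 to 7.15 in HDAd-0 and 6.66 to 6.93 in PBS. Among them Mpo, the myeloperoxidase of granules, read 9.69 on HDAd-gE3 replicate 4 and 4.58 to 6.47 elsewhere, and Elane, the neutrophil elastase, read 7.21 there and 4.23 to 4.60 elsewhere. Summed over the list, the log2 signals ran from 67.8 to 86.2 in HDAd-gE3, 58.6 to 64.4 in HDAd-0 and 59.9 to 62.4 in PBS. Of 7 measured erythroid precursor markers, 5 were highest on that array, and the list mean was 9.44 there, 7.95 to 8.28 on the other HDAd-gE3 arrays, 7.70 to 8.06 in HDAd-0 and 7.36 to 7.54 in PBS, with sums of 55.7 to 66.1, 53.9 to 56.4 and 51.5 to 52.8 in the 3 groups. Slc4a1, the red cell anion exchanger, rose by 2.25 ± 0.295 (SE) with HDAd-gE3 against PBS (limma, adjusted p = 0.0386). That call was lost with a replicate block (adjusted p = 0.388), with the control-transcript covariate (0.125), with only the 2 groups fitted (0.0604), with HDAd-gE3 replicate 4 and HDAd-0 replicate 5 both left out (0.127) and without any single array other than HDAd-0 replicate 3 (0.059 to 0.179). Other lists differed: 6 of 8 smooth muscle markers were also highest on HDAd-gE3 replicate 4, with a list mean of 12.65 there and 12.44 to 12.69 over all arrays. The 6 measured markers of mature neutrophils had a mean of 9.84 there and 9.97 on HDAd-gE3 replicate 3. No marker is at 0 on this log2 scale. The part of blood cell precursors in the cell cycle values was not tested.

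As a list mean, the 7 measured B cell markers were also high where the cell cycle genes were. Their mean was 6.94 on HDAd-gE3 replicate 4 and 6.90 and 6.91 on HDAd-0 replicates 3 and 5, against 6.49 on HDAd-0 replicate 4, 6.45 and 6.71 on HDAd-gE3 replicates 2 and 3, and 6.47 to 6.53 in PBS. The sums were 45.2 to 48.6 in HDAd-gE3, 45.4 to 48.4 in HDAd-0 and 45.3 to 45.7 in PBS, and 6 of 7 markers had a higher mean in HDAd-0 than in PBS. Single markers differed: HDAd-gE3 replicate 4 was the highest array for 3 of 7. Blnk read 9.85 there, against 9.97 to 10.07 in PBS. Only 4 of the 7 had a mean log2 signal of at least 6. The 6 measured germinal centre B cell markers had list means of 7.57 to 7.87 in HDAd-gE3, with 7.73 on replicate 4. Those means were 7.63 to 7.89 in HDAd-0 and 7.66 to 7.82 in PBS. The part of B cells in the cell cycle values was not tested.

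The 7 measured thymocyte markers followed another order. Their mean was 6.98 on HDAd-gE3 replicate 4 and 6.93 on HDAd-0 replicate 5, but also 6.84 and 6.94 on PBS replicates 1 and 3, where the cell cycle genes were low, and 5.12 to 5.88 on the other 5 arrays. The list sums were 35.9 to 48.8 in HDAd-gE3, 41.0 to 48.5 in HDAd-0 and 39.8 to 48.6 in PBS. Macrophage markers, for which a plaque is rich, had list means of 12.13 to 12.15 in HDAd-gE3, 12.29 to 12.41 in HDAd-0 and 12.22 to 12.27 in PBS, and endothelial markers 10.29 to 10.36, 10.45 to 10.60 and 10.10 to 10.20, so both lists were highest in HDAd-0. The lists differed in size of effect. For HDAd-0 against PBS all 8 endothelial markers had a higher mean, 6 of them without overlap (11.8% of all genes). Of these, Tie1 and Esam passed the adjusted test (limma, adjusted p = 0.0466 and 0.0478), but no gene passed with a replicate block or the control-transcript covariate. The median difference of the 8 macrophage markers was 0.04, with 1 lower and none passing. The difference between the 3′ and 5′ signals of the control transcripts, a measure of RNA degradation, was 0.809 on HDAd-gE3 replicate 4, inside the range of 0.673 to 1.08 over all arrays, and highest on HDAd-0 replicate 4.

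**Figure D2:**
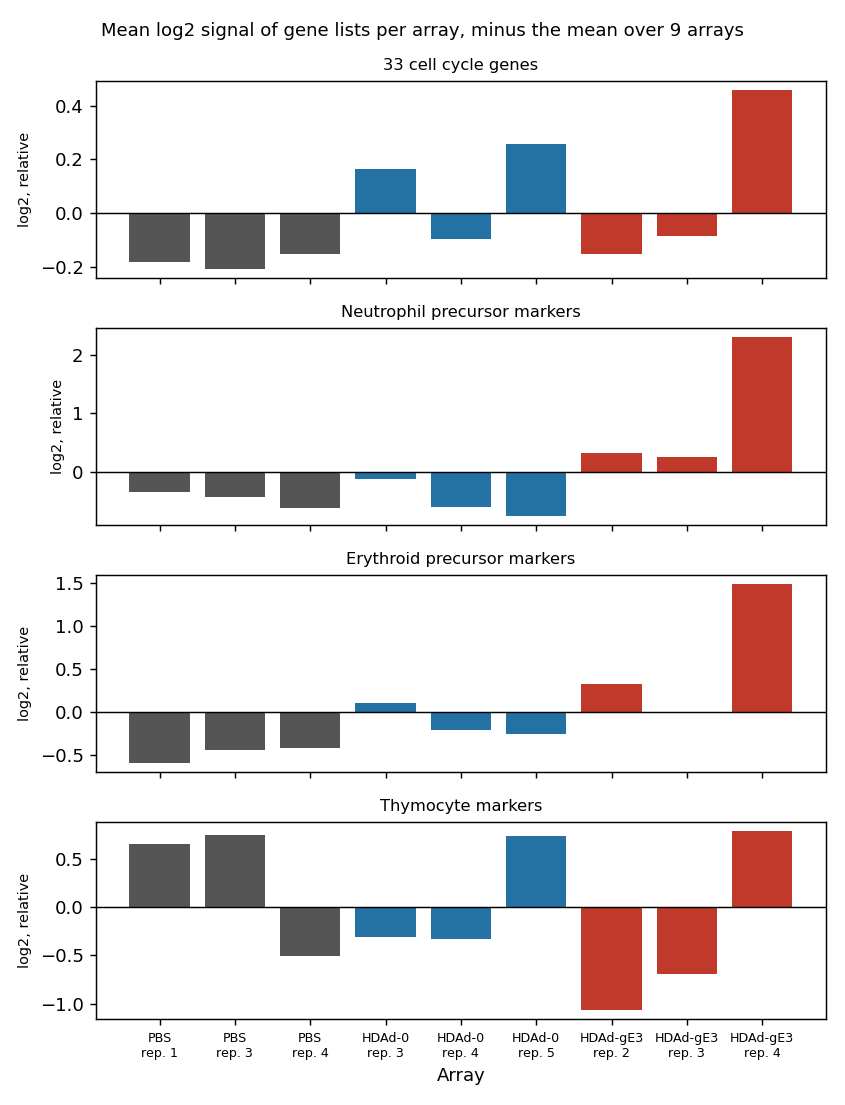
Mean log2 signal per array of the 33 cell cycle genes and of the markers of neutrophil precursors, erythroid precursors and thymocytes, each minus its own mean over the 9 arrays (bars start at 0, and the vertical scales differ). HDAd-gE3 replicate 4 is high in all 4 panels, and thymocyte markers are also high on PBS replicates 1 and 3.

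The vector without the gene was compared with PBS first, which concerns the adenoviral injection without the human gene. No cell cycle gene passed the test: limma called 0 of 33 (smallest adjusted p = 0.175, for Nusap1), where it called 0.066% of all genes at an adjusted p under 0.05. Below that threshold the members lay on the high side. The mean was higher with HDAd-0 for 31 of 33 (57.6% of all genes), all but Tyms and Ccne2, and the median difference was 0.27, against 0.02 over all genes. All 3 HDAd-0 arrays lay above all 3 PBS arrays for 12 members (11.8% of all genes), and below them for 0 (7%). At an unadjusted p under 0.05, 9 members were higher (8.5% of all genes) and 0 lower (4.39%). That count of 9 was 3 with HDAd-0 replicate 3 left out (6.98% of all genes in that fit), 2 with replicate 5 of that group left out (8.92%) and 4 without each PBS array in turn (6.19% to 6.8%). It was 18 without HDAd-gE3 replicate 4 (8.43%), which enters only through the shared estimate of spread.

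Markers of neighbouring and distant tissues also differed between HDAd-0 and PBS. All 6 cardiac muscle markers were lower on every HDAd-0 array than on any PBS array (7% of all genes), with a median difference of -0.87. Their sums were 72.5 to 78.4 in HDAd-0, 80.4 to 80.5 in PBS and 77.9 to 82.6 in HDAd-gE3. All 6 measured liver markers had a higher mean with HDAd-0, 5 of them without overlap (11.8% of all genes), with a median of 1.53. Their sums were 53.0 to 62.2, 47.8 to 49.8 and 49.3 to 55.3 in the same order. Of 7 skeletal muscle markers 5 had a higher mean with HDAd-0, 4 at an unadjusted p under 0.05 (8.5% of all genes), with a median of 1.08. Their sums were 44.2 to 57.1, 44.6 to 46.3 and 39.1 to 44.1 in that order. None of these markers passed the adjusted test in this comparison, and their part in the cell cycle values was not tested.

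The vector with the gene was then compared with the same PBS arrays, so this comparison and the first share their controls. Again 0 of 33 passed (smallest adjusted p = 0.0917, for Nusap1), where limma called 0.126% of all genes. The mean was higher with HDAd-gE3 for 28 of 33 (45.4% of all genes), with a median of 0.29 against -0.02 over all genes. The exceptions were Mcm5, Mcm6, Pcna, Ccne1 and Ccne2. For Mcm5, Mcm6 and Ccne1 a further probe set with a mean of at least 6 read higher than PBS. The arrays did not overlap for 7 members, all higher (10.8% of all genes), and 5 members were higher at an unadjusted p under 0.05 (5.94%) and 0 lower (7.27%). Without HDAd-gE3 replicate 4, the highest of its group for every member, the median was 0.04 and 20 of 33 had the higher mean. In that fit 4 members were higher (4.85% of all genes) and 2 lower (6.5%) at that p. When limma weighted each array by how closely it followed the fitted means, Ube2c, Nusap1 and Aurka passed at adjusted p = 0.0181, 0.0225 and 0.0395. They were 3 of 33 members, where 804 of all 18193 genes passed. That fit gave HDAd-gE3 replicate 3 a weight of 3.14, against 0.653 and 0.736 for replicates 2 and 4.

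The vectors were then compared with each other, a pair that differs in the human gene. This comparison called 0 of 33 members (0.0055% of all genes, smallest member adjusted p = 0.401), and at an unadjusted p under 0.05 it had 0 members higher (3.46%) and 0 lower (9.4%). The mean was higher with HDAd-gE3 for 14 of 33 (38.3% of all genes), the median was -0.05 against -0.04 over all genes, and no member's arrays were separate in either direction (4.25% and 12% of all genes). This balance depended on single arrays and on the model. Without HDAd-gE3 replicate 4 the median was -0.26, only 5 of 33 had the higher mean, and 14 members were lower at an unadjusted p under 0.05 (8.6% of all genes in that fit), among them Mcm3, Mcm5, Bub1b, Cenpe, Cenpf and Mki67, with no adjusted p under 0.228. HDAd-gE3 replicate 4 was the highest of its group for every member, so leaving it out could only lower the HDAd-gE3 means. Without HDAd-gE3 replicate 2, or 3, or HDAd-0 replicate 5, the median turned to 0.10, 0.03 and 0.01. Without HDAd-0 replicate 4 it was -0.13 with 7 of 33 higher, with array weights -0.17 with 7 of 33 higher, and with a replicate block 0.12 with 24 of 33 higher.

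**Figure D3:**
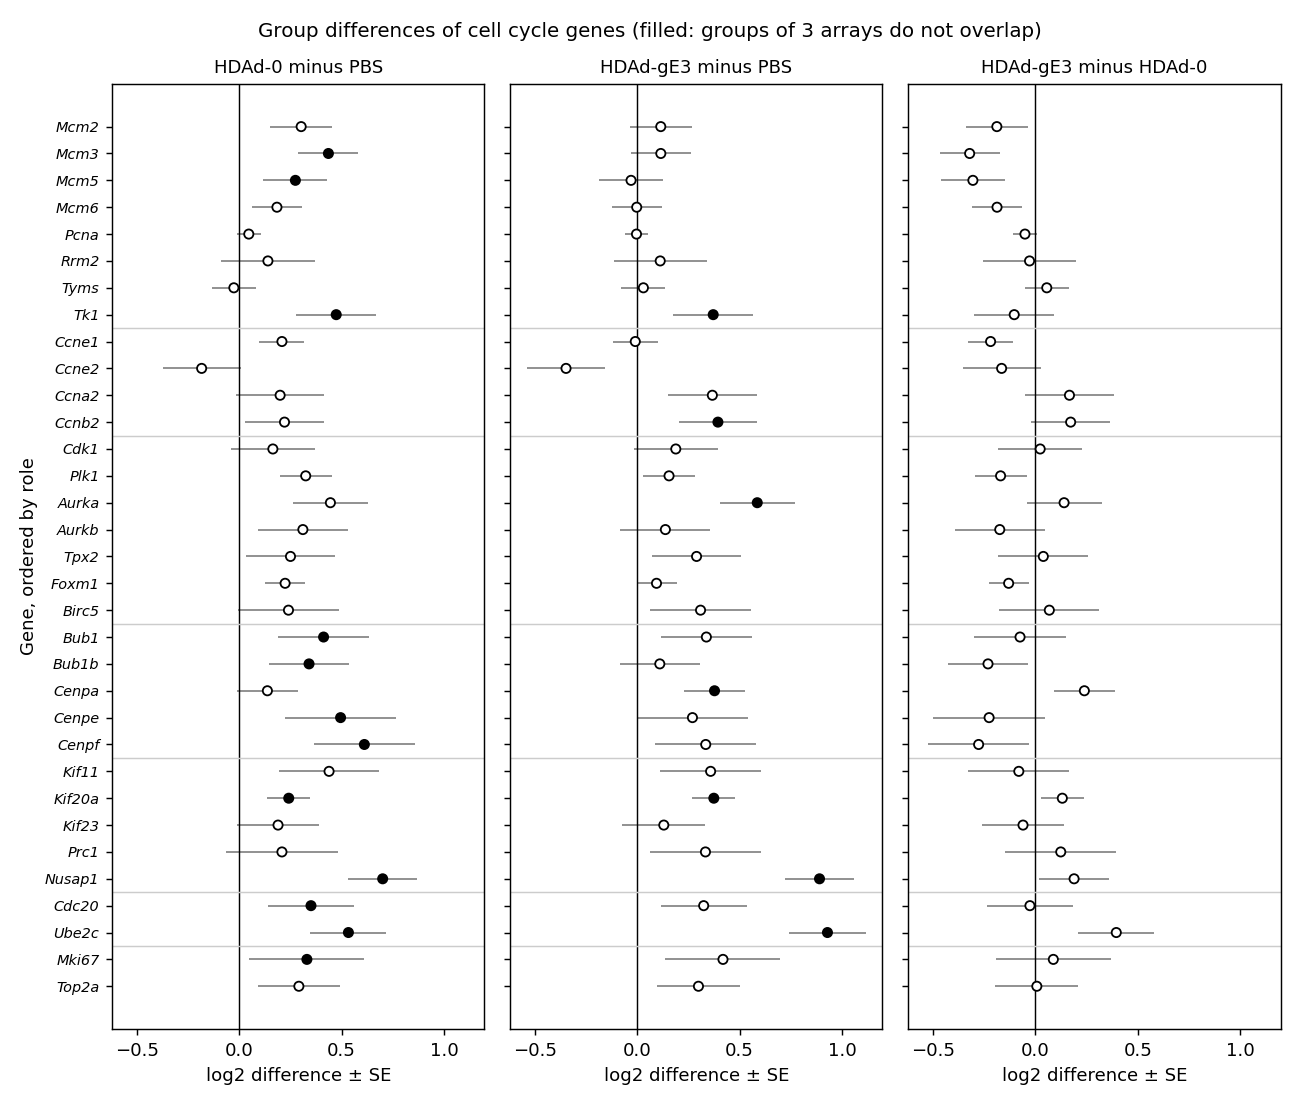
Log2 difference ± SE (limma, 3 arrays per group) of each measured cell cycle gene in the 3 comparisons, with genes in rows ordered by role. Filled points, where the 2 groups of arrays do not overlap, number 12 for HDAd-0 minus PBS, 7 for HDAd-gE3 minus PBS and 0 for HDAd-gE3 minus HDAd-0.

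Among the genes of replication licensing and DNA synthesis, 7 of 8 had a higher mean with HDAd-0 than with PBS, but only 1 of 8, Tyms, had a higher mean with HDAd-gE3 than with HDAd-0. Mcm3 and Mcm5 are subunits of the helicase that opens DNA at origins. Mcm3 read 9.12, 8.82 and 9.05 with PBS, 9.30, 9.57 and 9.44 with HDAd-0, and 8.96, 8.94 and 9.44 with HDAd-gE3 (replicates in rising order here and below). The HDAd-0 arrays were all above PBS, by 0.44 ± 0.147 (SE, adjusted p = 0.282, limma), whereas HDAd-gE3 replicates 2 and 3 lay within the PBS range and replicate 4 within that of HDAd-0. Mcm5 read 8.58, 8.65 and 8.86 with PBS, 8.91, 8.97 and 9.04 with HDAd-0, and 8.46, 8.48 and 9.06 with HDAd-gE3. Here HDAd-gE3 replicates 2 and 3 were the lowest of the 9 arrays and replicate 4 the highest. Leaving that array out, the difference of HDAd-gE3 from HDAd-0 was -0.50 ± 0.0941 for Mcm5 and -0.49 ± 0.112 for Mcm3 (limma, adjusted p = 0.228 and 0.239). As replicate 4 was the highest of its group for both genes, leaving it out could only make these differences more negative.

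Mcm2, another helicase subunit, overlapped between groups, at 8.62 to 8.88 with PBS, 8.87 to 9.18 with HDAd-0 and 8.55 to 9.15 with HDAd-gE3, and Mcm6 likewise, at 10.26 to 10.50, 10.39 to 10.77 and 10.28 to 10.59. Tk1, the thymidine kinase of the salvage route, read 7.72, 7.59 and 7.71 with PBS, 8.25, 7.82 and 8.36 with HDAd-0, and 7.87, 7.79 and 8.48 with HDAd-gE3. Both vector groups lay above PBS without overlap, HDAd-0 by 0.47 ± 0.195 (adjusted p = 0.358, limma) and HDAd-gE3 by 0.37 ± 0.195 (adjusted p = 0.454). Pcna, the sliding clamp of the polymerase, lay between 12.13 and 12.27 on all 9 arrays. Rrm2, the regulated subunit of ribonucleotide reductase, spread from 10.79 to 11.78 within HDAd-gE3 alone, and Tyms, which makes thymidylate, was near the dim level on every array (5.98 to 6.40).

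The cyclins differed in direction. Ccnb2, a mitotic cyclin, read 7.52, 7.48 and 7.57 with PBS, 7.73, 7.56 and 7.94 with HDAd-0, and 7.67, 7.67 and 8.41 with HDAd-gE3. All HDAd-gE3 arrays were above PBS, by 0.39 ± 0.192 (adjusted p = 0.424, limma), and replicate 4 was far above the other HDAd-gE3 arrays. Ccna2, the cyclin of S phase and G2, overlapped between groups, at 9.17 to 9.42, 9.13 to 9.72 and 9.40 to 10.13 in the same order. Ccne2, a cyclin of S phase entry, was the member with the lowest difference from PBS in both vector groups: it read 8.44, 8.29 and 8.19 with PBS, 8.04, 8.11 and 8.23 with HDAd-0, and 7.54, 7.93 and 8.41 with HDAd-gE3. Its differences were -0.18 and -0.35 with an SE of 0.19. Ccne1, its paralogue, differed from PBS by 0.21 with HDAd-0 and -0.01 with HDAd-gE3, with overlapping arrays.

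All 7 mitotic kinases and their regulators had a higher mean in both vector groups than in PBS, and Aurka stood out among them. Aurka, the Aurora kinase of centrosomes and spindle poles, read 6.98, 7.01 and 6.68 with PBS, 7.41, 6.97 and 7.63 with HDAd-0, and 7.22, 7.54 and 7.68 with HDAd-gE3. The HDAd-gE3 arrays were all above PBS, by 0.59 ± 0.183 (adjusted p = 0.25, limma), and still by 0.49 ± 0.201 without replicate 4. The HDAd-0 difference from PBS was 0.45 ± 0.183 (adjusted p = 0.356), with replicate 4 inside the PBS range.

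Plk1, the Polo kinase of mitotic entry, read 6.55, 6.41 and 6.30 with PBS, 6.83, 6.49 and 6.91 with HDAd-0, and 6.46, 6.52 and 6.75 with HDAd-gE3. Its groups overlapped in every comparison, and the difference of HDAd-0 from PBS was 0.32 ± 0.127 (adjusted p = 0.336, limma). Foxm1, the transcription factor of G2 and mitosis genes, read 7.02, 7.17 and 7.04 with PBS, 7.17, 7.36 and 7.37 with HDAd-0, and 7.01, 7.16 and 7.34 with HDAd-gE3, and HDAd-0 was 0.22 ± 0.0977 above PBS (adjusted p = 0.383). Cdk1, the kinase that cyclins A and B activate, read 8.73, 8.94 and 8.84 with PBS, 9.13, 8.60 and 9.28 with HDAd-0, and 8.67, 9.06 and 9.35 with HDAd-gE3. For Cdk1 both vector groups spread over a wider range than PBS and enclosed it. Aurkb of the chromosome passenger complex and its partner Birc5 (survivin) also spread more in the vector groups, with Birc5 at 9.61 to 9.67 with PBS, 9.51 to 10.18 with HDAd-0 and 9.64 to 10.52 with HDAd-gE3. Tpx2, the activator of Aurka, was 0.25 and 0.29 above PBS in the 2 vector groups, with an SE of 0.219.

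Of the kinetochore and checkpoint genes, 4 of 5, Bub1, Bub1b, Cenpe and Cenpf, were above PBS on every HDAd-0 array (11.8% of all genes), and none passed the adjusted test. Cenpf, a large protein of the outer kinetochore, read 6.05, 5.76 and 6.20 with PBS, 6.90, 6.27 and 6.68 with HDAd-0, and 5.89, 6.29 and 6.83 with HDAd-gE3. HDAd-0 was 0.61 ± 0.246 above PBS (1.53-fold, adjusted p = 0.348, limma), and HDAd-gE3 overlapped both. Cenpe, the kinesin of the kinetochore, read 6.88, 6.94 and 7.17 with PBS, 7.69, 7.18 and 7.60 with HDAd-0, and 6.91, 6.93 and 7.96 with HDAd-gE3, so that HDAd-gE3 replicates 2 and 3 were as low as PBS and replicate 4 was the highest of all. Bub1, a checkpoint kinase, read 6.84, 6.47 and 6.69 with PBS, 7.29, 6.87 and 7.08 with HDAd-0, and 6.66, 6.81 and 7.55 with HDAd-gE3. Bub1b (BubR1), which blocks Cdc20, read 7.22, 7.14 and 7.20, then 7.54, 7.33 and 7.73, then 6.93, 7.20 and 7.77 in the same order of groups. For both Bub genes the 2 lower HDAd-gE3 arrays were below the top of the PBS range.

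Cenpa, the histone that marks centromeres, had another pattern. It read 8.14, 8.18 and 8.11 with PBS, 8.32, 7.92 and 8.61 with HDAd-0, and 8.56, 8.42 and 8.59 with HDAd-gE3. All HDAd-gE3 arrays were above PBS, by 0.38 ± 0.148 (1.30-fold, adjusted p = 0.332, limma), and the HDAd-0 arrays enclosed PBS. A dimmer Cenpa probe set, with a mean log2 signal of 4.94, gave a difference of HDAd-gE3 from HDAd-0 of -0.75 where the brighter set gave 0.24, so the direction between the vectors depends on the probe set.

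Of the spindle motors and bundlers, Nusap1 had the largest difference from PBS with HDAd-0 of all members, and nearly the largest with HDAd-gE3. Nusap1, which bundles spindle microtubules near chromosomes, read 8.42, 8.12 and 8.34 with PBS, 9.25, 8.74 and 8.998 with HDAd-0, and 9.07, 8.98 and 9.51 with HDAd-gE3. Every vector array was above every PBS array, and the vectors overlapped. The difference from PBS was 0.70 ± 0.169 with HDAd-0 (1.63-fold, adjusted p = 0.175, limma) and 0.89 ± 0.169 with HDAd-gE3 (1.85-fold, adjusted p = 0.0917), and 0.73 ± 0.152 for HDAd-gE3 without replicate 4 (adjusted p = 0.193). A dimmer Nusap1 probe set, with a mean of 5.17, gave differences of 0.08 and 0.43. Kif20a, a kinesin of the cleavage furrow, read 7.47, 7.31 and 7.20 with PBS, 7.58, 7.48 and 7.65 with HDAd-0, and 7.67, 7.54 and 7.89 with HDAd-gE3. It too was above PBS on all 6 vector arrays, by 0.24 ± 0.105 and 0.37 ± 0.105 (adjusted p = 0.381 and 0.22, limma).

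Kif11, the motor that pushes spindle poles apart, read 6.55 to 6.94 with PBS, 6.93 to 7.35 with HDAd-0 and 6.70 to 7.69 with HDAd-gE3, a near separation of HDAd-0 that failed on 1 array. Kif23 and Prc1, both of the central spindle, overlapped in all comparisons. On HDAd-0 replicate 4 they were below every PBS array (7.28 for Kif23 and 8.67 for Prc1).

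Ube2c had the largest difference between HDAd-gE3 and PBS of any member. This enzyme starts ubiquitin chains for the anaphase-promoting complex. Ube2c read 8.85, 9.07 and 9.03 with PBS, 9.73, 9.08 and 9.73 with HDAd-0, and 9.85, 9.72 and 10.17 with HDAd-gE3. All 3 HDAd-gE3 arrays were above PBS, and replicates 2 and 3, on which most members were near PBS, were about as high as the upper HDAd-0 arrays. The difference was 0.93 ± 0.186 (1.90-fold, adjusted p = 0.103, limma) and 0.80 ± 0.194 without replicate 4 (adjusted p = 0.248). HDAd-0 was 0.53 ± 0.186 above PBS (adjusted p = 0.295), with replicate 4 only just above, and HDAd-gE3 was 0.40 ± 0.186 above HDAd-0 (adjusted p = 0.412), the largest difference of a member between the vectors. Cdc20, the activator of the same complex, read 7.56, 7.72 and 7.81 with PBS, 7.97, 7.99 and 8.19 with HDAd-0, and 7.87, 7.63 and 8.57 with HDAd-gE3, so only HDAd-0 was separate from PBS, by 0.35 ± 0.21 (adjusted p = 0.517).

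Mki67, the proliferation antigen that coats mitotic chromosomes, depended strongly on 1 array. It read 9.34, 9.17 and 9.25 with PBS, 9.37, 9.74 and 9.63 with HDAd-0, and 9.37, 9.21 and 10.44 with HDAd-gE3. HDAd-gE3 was 0.42 ± 0.281 above PBS (adjusted p = 0.559, limma) with all arrays and 0.04 ± 0.12 above it without replicate 4. HDAd-0 was 0.33 ± 0.281 above PBS (adjusted p = 0.65). Top2a, the topoisomerase that untangles chromosomes, read 8.55, 8.52 and 8.49 with PBS, 8.89, 8.55 and 9.0 with HDAd-0, and 8.48, 8.66 and 9.31 with HDAd-gE3. Its PBS arrays were tight, and 1 array of each vector group lay within or just below their range.

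**Figure D4:**
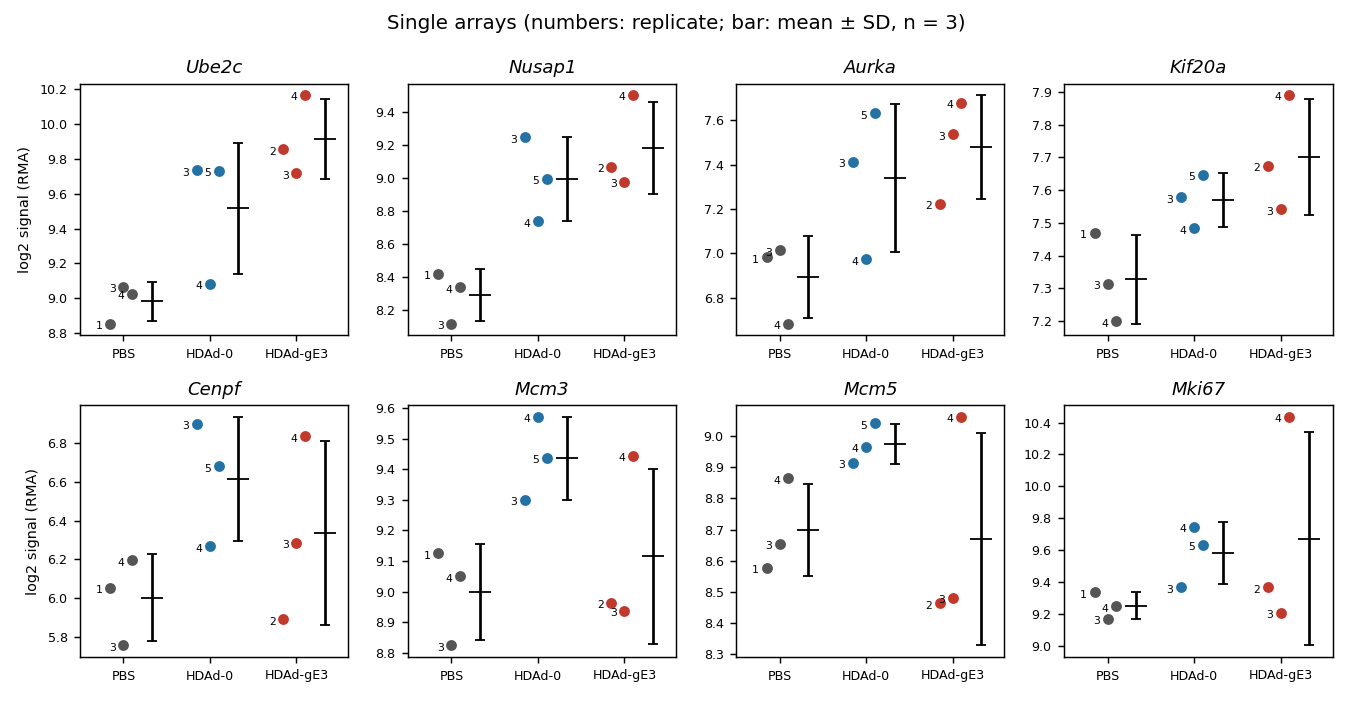
Log2 signal of 8 cell cycle genes on the single arrays, with replicate numbers beside the points and mean ± SD (n = 3) to the right of each group (vertical scales differ and do not start at 0). For Ube2c, Nusap1 and Kif20a all vector arrays lie above PBS, and for Mcm3, Mcm5 and Mki67 HDAd-gE3 replicate 4 lies far above the other HDAd-gE3 arrays.

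By role, the group means relative to each gene's mean over the arrays were lowest in PBS for all 7 roles. For the ubiquitin ligase genes Cdc20 and Ube2c the PBS mean was -0.356, the HDAd-0 mean 0.0858 and the HDAd-gE3 mean 0.271, and for the replication genes they were -0.106, 0.123 and -0.0175. Over all members the PBS value was -0.181 ± 0.0282 (SD, n = 3), that of HDAd-0 was 0.108 ± 0.183, and that of HDAd-gE3 was 0.0726 ± 0.335.

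Further probe sets of the same genes gave a partial check. 23 members had more than 1 probe set, and 16 further sets in 12 members were at or above a mean of 6. For HDAd-0 against PBS all 16 read higher, as the brightest sets of their genes did, with a median of 0.37. For HDAd-gE3 against PBS all 16 read higher, 13 of them in the direction of the brightest set, with a median of 0.23. The sets that differed in direction were those of Mcm5, Mcm6 and Ccne1, at 0.26, 0.19 and 0.03. Their brightest sets gave -0.03, -0.003 and -0.01. Between the vectors 2 of 16 read higher with HDAd-gE3, and the median was -0.15. Ube2c, Kif20a and Mki67 have 1 set each. The chosen sets of Mcm5, Mcm6, Rrm2, Ccne1, Foxm1 and Cdc20 (suffix x_at) and of Mcm2, Aurkb, Bub1b and Prc1 (suffix s_at) carry the maker's marks for probes that can match more than 1 transcript.

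The wider cell cycle was read from 116 further genes in lists of replication (30), mitosis (43), control of G1 and of cell cycle entry (22) and inhibitors (21). None passed the test in any comparison. For HDAd-0 against PBS 16 were higher and 4 lower by an unadjusted p below 0.05, with a median of 0.07, and the replication and mitosis lists gave 6 higher each and 0 lower. For HDAd-gE3 against PBS 12 were higher and 6 lower, with a median of 0.07, and between the vectors 3 were higher and 4 lower, with a median of -0.03. Over all genes the shares at that p were 8.5% higher and 4.39% lower, 5.94% and 7.27%, and 3.46% and 9.4% in the same order.

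The genes of this wider list with the smallest p between the vectors were E2f2, Cdc25b and Cdt1, and those against PBS were Btg2, Cdkn2b, Cdkn1a and Cdc25b. E2f2, an activating E2F factor, read 7.43, 7.31 and 7.64 with PBS, 8.22, 7.58 and 7.71 with HDAd-0, and 8.63, 8.18 and 8.58 with HDAd-gE3. HDAd-gE3 was 1.004 ± 0.184 above PBS (2.01-fold, adjusted p = 0.0873, limma) and 0.62 ± 0.184 above HDAd-0 (adjusted p = 0.266). Cdc25b, the phosphatase that first activates Cdk1, read 10.65, 10.58 and 10.51, then 10.95, 10.74 and 10.90, then 11.04, 11.08 and 11.26 in the same order, so the groups stood in steps without overlap. Its differences were 0.28 ± 0.0844 for HDAd-0 against PBS, 0.26 ± 0.0844 for HDAd-gE3 against HDAd-0 and 0.55 ± 0.0844 for HDAd-gE3 against PBS (adjusted p = 0.241, 0.293 and 0.0689, limma). Cdt1, which loads the MCM helicase, was lower on all HDAd-gE3 arrays than on any HDAd-0 array, with a difference of -0.28 ± 0.0932 (adjusted p = 0.311, limma).

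The inhibitors did not share a direction. Btg2, an antiproliferative gene, read 9.29, 9.38 and 9.26 with PBS, 9.62, 9.72 and 9.80 with HDAd-0, and 9.72, 9.83 and 9.93 with HDAd-gE3, above PBS by 0.40 ± 0.0753 and 0.51 ± 0.0753 (adjusted p = 0.127 and 0.0633, limma). Cdkn2b (p15), an inhibitor of Cdk4 and Cdk6, read 8.41, 8.43 and 8.44 with PBS, 8.03, 8.09 and 8.12 with HDAd-0, and 7.95, 7.96 and 8.16 with HDAd-gE3, with differences from PBS of -0.34 ± 0.069 and -0.41 ± 0.069 (adjusted p = 0.14 and 0.0847). Cdkn1a (p21), which blocks Cdk2, read 11.80, 11.77 and 11.76 with PBS, 11.59, 11.52 and 11.46 with HDAd-0, and 11.70, 11.66 and 11.54 with HDAd-gE3. Both inhibitors were thus below PBS on all 6 vector arrays, and for Cdkn1a the HDAd-0 difference was the larger, at -0.26 ± 0.0636 (adjusted p = 0.186).

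**Figure D5:**
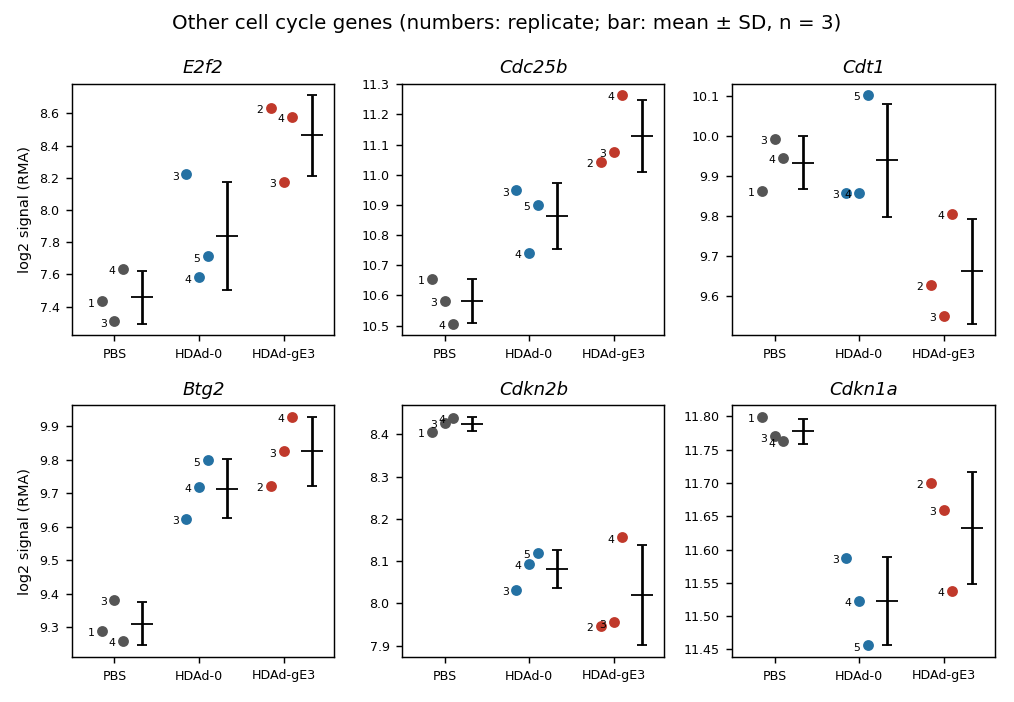
Log2 signal of 6 further cell cycle genes on the single arrays, with replicate numbers beside the points and mean ± SD (n = 3) to the right of each group (vertical scales differ and do not start at 0). Cdc25b steps up from PBS to HDAd-0 to HDAd-gE3, and Cdkn2b and Cdkn1a are lower on all vector arrays than on PBS.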

How the data were processed

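The study hybridised 9 mouse arrays with biotin-labelled RNA amplified with the FL-Ovation kit. The deposited log2 values came from RMA, per the submitters' processing notes (version not given), and the log2 scale was read from the values (1.98 to 14.7). Of 45101 probe sets, 34945 name 1 gene, 932 several and 9160 none, and 64 are controls; 34741 matched RefSeq (GRCm38.p6) by gene ID. The brightest single-gene probe set stood for each of 18193 genes. All 9 arrays, in 3 groups, entered 1 limma fit (lmFit and eBayes, limma 3.58.1, R 4.3.3), with Benjamini-Hochberg adjustment over all genes and a threshold of 0.05; unadjusted p-values are given as counts only. With 3 arrays a side, exact permutation has a smallest p of 0.1, so it was not used. The labels number the pools and do not say how separately they were handled, so p-values measure the spread between these arrays, whose number limits precision. The members, roles, gene lists, markers and named genes (members that reached an unadjusted p under 0.05 or did not overlap, plus a set of textbook genes; for other lists those with the smallest p) were chosen with earlier results of these data known. Alternatives changed scaling, filter, probe set, model, threshold and arrays. The procedure was tested on simulated data. Listed markers and cell cycle genes without a single-gene probe set, among them the T cell markers Lck and Trac, were not analysed here.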

Additional observations from a re-analysis of the deposited data

How the results depend on the processing

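The 33 members had 0 calls in all alternatives for HDAd-0 against PBS and for HDAd-gE3 against HDAd-0. For HDAd-gE3 against PBS there were 3 with array weights and 1 at a threshold of 0.10. Of the named members' differences, 59 changed sign under an alternative, none of them called with all arrays, 1138 kept sign and side of the threshold, and 3, those with array weights, passed it. The median member difference from PBS kept its sign in all alternatives: for HDAd-0 it ranged from 0.21 to 0.39, and for HDAd-gE3 from 0.036 to 0.39, with 0.036 without HDAd-gE3 replicate 4 and with HDAd-gE3 replicate 4 and HDAd-0 replicate 5 both left out. Between the vectors it ranged from -0.26 to 0.12 and had no stable sign. Median centring subtracted array medians of 6.756 to 6.766 in HDAd-gE3 and 6.673 to 6.717 in HDAd-0. It thereby moved the median of all genes between the vectors from -0.04 to -0.10. The cause of the other shifts was not tested.

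Members higher than PBS at an unadjusted p under 0.05 with HDAd-0, 9 in all, numbered 2 to 18 with single arrays left out, 18 when only the 2 groups were fitted and 3 with a replicate block; with HDAd-gE3, 5 in all, they numbered 4 to 9 with single arrays left out and 3 with the 3′ minus 5′ covariate. These counts were chosen after seeing the data. Counts of all genes called were less stable. Between the vectors (1 gene) there were 0 with the most variable probe set, the replicate block, array weights, only the 2 groups fitted or the covariate, and 0 to 10 with single arrays left out. For HDAd-0 against PBS (12 genes) there were 6 after quantile normalization again, 25 without dim genes, 3 with the most variable probe set, 0 with the block, the 2 groups or the covariate, 35 at a threshold of 0.10, 1 with the pair of arrays left out and 0 to 31 with single arrays left out. For HDAd-gE3 against PBS (23 genes) there were 82 without dim genes, 0 with the block, 804 with array weights, 89 with an intensity trend, 13 with the 2 groups, 134 at 0.10, 3 with the covariate, 1 with the pair left out and 0 to 21 with single arrays left out.

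Same-numbered arrays gave no clear sign of pairing: their deviations from the group means correlated between -0.0465 and 0.0999 over genes. With 3 arrays a group, such values cannot decide whether equal numbers mark pools that were handled together, and the labels do not say.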
